A study of Mus musculus with 6 samples.

Results

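The 10 genes described here encode 3 linked sets of lysosomal regulators, and their transcript levels were compared between Rosa-Hes1 and control osteoclasts in culture. They were chosen by name, as 4 MiT transcription factors (Mitf, Tfe3, Tfeb and Tfec), 3 mucolipin channels (Mcoln1, Mcoln2 and Mcoln3), and folliculin with its 2 partners (Flcn, Fnip1 and Fnip2), out of 55573 genes in the count files. The choice was made with results of the same contrast known, among them the change of Mcoln3, so their fold changes and p-values are given as a description and are not independent tests. All 10 had enough counts to enter the fit, which tested 16954 genes.

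The Rosa-Hes1 group held 3 osteoclast libraries. Their genotype was Ctsk Cre/WT;Rosa Hes1, in which Cre made from the cathepsin K gene releases HES1 and GFP expression from the Rosa26 locus. The control group held 3 libraries that the labels call wild type and that the study's methods describe as littermates with the Rosa[STOP]Hes1 allele and no Cre. The mice were 10 weeks old, per the study's legends, and came from crosses of alleles kept in ICR and C57BL/6 stock. All 6 libraries were labelled male, and bone marrow–derived macrophages were cultured to day 4 with both M-CSF (30 ng/ml) and RANKL (10 ng/ml). The Cre allele is a knock-in at Ctsk on chromosome 3, so Cre, the genome around it and HES1 excess differed together between the groups and cannot be told apart.

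MITF, TFE3, TFEB and TFEC are related basic helix-loop-helix leucine zipper proteins that pair with each other and bind DNA sites with the letters CACGTG or TCATGTG. MITF and TFE3 both take part in osteoclast maturation in mice, and TFEB drives genes of lysosomes and autophagy, the CLEAR network. Folliculin, held by FNIP1 or FNIP2 at the lysosome, acts on the Rag GTPases RagC and RagD, through which mTORC1 phosphorylates TFEB and TFE3 and keeps them out of the nucleus. Mucolipins are cation channels of endosomes and lysosomes that are opened by the lipid PI(3,5)P2. Calcium released through mucolipin 1 activates calcineurin, which removes phosphate from TFEB.

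Hes1 was examined first because it checks the labels. It measured 4.95, 4.83 and 6.90 CPM (read counts relative to library size, which was normalized by TMM) in the Rosa-Hes1 libraries, against 0.516, 0.557 and 0.296 CPM in the control libraries. All Rosa-Hes1 libraries were above all control libraries, and the fold change was 11.8 (log2 3.57, SE 0.30, adjusted p = 0.00477, edgeR quasi-likelihood test).

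The promoters of the 5 genes that passed the test, and of Mcoln2 beside its 2 paralogs, are shown so that the letters of candidate HES1 and MiT sites can be read. The motifs searched on both strands were CACNAG (N-box) and CACGNG (class C site), which HES factors are reported to bind, CACGTG (E-box), TCACGTGA (the core of the CLEAR element) and TCATGTG (M-box). Every CACGTG is also a CACGNG, every TCACGTGA holds both, and CACGAG is a CACNAG and a CACGNG. Capitals mark every match, and each sequence runs 5′ to 3′ over 300 bases, from 250 before to 50 after the RefSeq gene start, in build GRCm38.p6.
Mcoln1, chr8:3500269-3500568, plus strand: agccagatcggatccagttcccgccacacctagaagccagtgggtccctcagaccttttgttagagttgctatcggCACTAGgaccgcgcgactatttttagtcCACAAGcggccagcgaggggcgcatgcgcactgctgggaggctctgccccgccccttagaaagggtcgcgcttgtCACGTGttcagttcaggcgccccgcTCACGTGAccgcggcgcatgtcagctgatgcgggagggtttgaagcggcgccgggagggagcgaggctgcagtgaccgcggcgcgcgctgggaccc
Mcoln2, chr3:146149924-146150223, plus strand: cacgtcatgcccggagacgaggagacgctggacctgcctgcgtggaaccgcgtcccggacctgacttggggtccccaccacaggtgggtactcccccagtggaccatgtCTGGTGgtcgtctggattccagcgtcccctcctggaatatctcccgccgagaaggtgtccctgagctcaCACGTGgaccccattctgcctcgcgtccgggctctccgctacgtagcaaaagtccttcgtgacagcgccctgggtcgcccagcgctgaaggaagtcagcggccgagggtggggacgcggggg
Mcoln3, chr3:146121541-146121840, plus strand: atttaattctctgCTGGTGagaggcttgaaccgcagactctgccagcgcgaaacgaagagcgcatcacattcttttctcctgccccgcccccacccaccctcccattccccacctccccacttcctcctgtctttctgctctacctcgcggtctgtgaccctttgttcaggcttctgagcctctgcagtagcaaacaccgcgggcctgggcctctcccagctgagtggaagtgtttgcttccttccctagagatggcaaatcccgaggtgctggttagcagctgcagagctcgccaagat
Flcn, chr11:59809990-59810289, minus strand: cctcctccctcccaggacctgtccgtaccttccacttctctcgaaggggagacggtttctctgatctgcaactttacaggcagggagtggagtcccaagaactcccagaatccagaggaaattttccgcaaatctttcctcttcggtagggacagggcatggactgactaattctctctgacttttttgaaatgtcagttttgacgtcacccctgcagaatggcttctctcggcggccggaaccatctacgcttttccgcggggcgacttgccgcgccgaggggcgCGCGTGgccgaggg
Fnip1, chr11:54437929-54438228, plus strand: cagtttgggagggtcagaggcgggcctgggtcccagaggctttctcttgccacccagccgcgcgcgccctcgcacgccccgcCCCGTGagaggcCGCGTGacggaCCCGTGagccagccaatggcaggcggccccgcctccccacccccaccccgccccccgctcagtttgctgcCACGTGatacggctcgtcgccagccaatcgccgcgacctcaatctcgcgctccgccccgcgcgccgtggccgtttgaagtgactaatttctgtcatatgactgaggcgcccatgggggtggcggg
Fnip2, chr3:79567630-79567929, minus strand: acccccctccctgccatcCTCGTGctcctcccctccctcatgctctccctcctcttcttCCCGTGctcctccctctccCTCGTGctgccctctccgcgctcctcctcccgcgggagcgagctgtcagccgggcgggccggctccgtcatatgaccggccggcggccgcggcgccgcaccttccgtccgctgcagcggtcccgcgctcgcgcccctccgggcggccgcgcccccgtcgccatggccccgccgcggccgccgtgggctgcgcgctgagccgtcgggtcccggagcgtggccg

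Mcoln1 was the only one of the 10 genes with the CLEAR core TCACGTGA in these windows, 46 bases before the start, and it held CACGTG at 2 places, 71 and 45 bases before the start. Fnip1 and Mcoln2 held CACGTG once each, 75 and 72 bases before their starts. Mcoln3 held no CACGTG or CACGNG, and its single match was a CACNAG 237 bases before the start. That window lies inside the gene as GENCODE annotates it, whose first base is at 146117450. The Mcoln2 window also lies inside its annotated gene, whose first base is at 146149833, so its CACGTG lies after that base. Flcn held a CACGNG alone, 37 bases after the start, while Fnip2 held CACGNG at 3 places, 2 of which are CACNAG as well.

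Among 32851 windows of the same length in the RefSeq table, 42.5% held CACNAG, 27.5% CACGNG, 7.15% CACGTG, 0.974% TCACGTGA and 3.77% TCATGTG. Of the 10 genes, 5 held CACNAG, 6 CACGNG, 3 CACGTG, 1 TCACGTGA and 0 TCATGTG in at least 1 of their windows. Counted by window, as for the whole table, 7 of their 15 windows held CACNAG, 7 CACGNG, 3 CACGTG, 1 TCACGTGA and 0 TCATGTG. Mitf, with 3 starts in the table, held CACNAG at each. Tfeb held CACGNG at 2 of its 3 starts, and Tfe3 and Tfec held none of these motifs. The windows shown held 56.7% to 78.0% G and C, against a median of 52.7% over all windows. A match is a run of letters and not a measured binding site.

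Of the 10 genes, 5 passed the threshold (adjusted p under 0.05) with higher levels in Rosa-Hes1 libraries and 0 with lower levels, where 8.25% of all genes tested passed in either direction, 5.85% higher and 2.41% lower. Groups did not overlap for 6 of the 10 genes, all 6 higher in Rosa-Hes1, where 31.2% of all genes did not overlap in either direction and 16.6% were higher throughout. The median log2 fold change was 0.24 for the 10 genes and -0.01 for all genes tested. The study reports more osteoclasts in Rosa-Hes1 cultures, and in RNA of whole cultures more osteoclasts and more RNA per cell cannot be told apart.

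Folliculin and both of its partners rose together. Flcn, mutated in the Birt-Hogg-Dubé syndrome of people, measured 56.4, 50.5 and 53.4 CPM in Rosa-Hes1 libraries, against 38.7, 43.6 and 41.6 CPM in control libraries. The lowest Rosa-Hes1 library was above the highest control library. Flcn averaged 53.4 ± 2.98 CPM in Rosa-Hes1, against 41.3 ± 2.50 CPM in control libraries (SD, n = 3 each), a 1.29-fold difference (log2 0.37, SE 0.08, adjusted p = 0.0273).

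Fnip1, whose protein also carries AMPK to folliculin, measured 100.6, 92.0 and 101 CPM in Rosa-Hes1 libraries, against 65.5, 76.1 and 76.5 CPM in control libraries. Again the groups did not overlap, and control replicate 1 was the lowest of the 6. Its means were 97.8 ± 5.07 and 72.7 ± 6.23 CPM in Rosa-Hes1 and control libraries (SD, n = 3 each), a 1.35-fold difference (log2 0.43, SE 0.08, adjusted p = 0.0193).

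Fnip2, the close relative that can take the place of FNIP1, measured 126.5, 116 and 118 CPM in Rosa-Hes1 libraries, against 94.6, 99.3 and 95.5 CPM in control libraries. The groups did not overlap, and the spread within each was small. Means were 120.2 ± 5.56 CPM in Rosa-Hes1, against 96.5 ± 2.48 CPM in control libraries (SD, n = 3 each), a 1.25-fold difference (log2 0.32, SE 0.06, adjusted p = 0.0231).

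Since the 3 genes rose by like amounts, their proportions were close in the 2 groups. Per kilobase of annotated exon, Flcn made 30.5% ± 0.288 of the summed level of the 3 genes in Rosa-Hes1 libraries and 30.5% ± 0.359 in control libraries (SD, n = 3 each). The summed level was 42.3, 38.5 and 40.7 CPM per kilobase in Rosa-Hes1 libraries, against 29.5, 32.7 and 31.8 CPM per kilobase in control libraries. All Rosa-Hes1 sums were above all control sums.

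The mucolipins did not move as one. Mcoln1, the channel lost in mucolipidosis type IV, measured 69.7, 62.6 and 75.2 CPM in Rosa-Hes1 libraries, against 49.4, 50.8 and 59.1 CPM in control libraries. The gap between Rosa-Hes1 replicate 2 and control replicate 3 was small, and the groups did not overlap. Means were 69.2 ± 6.35 and 53.1 ± 5.29 CPM in Rosa-Hes1 and control libraries (SD, n = 3 each), a 1.30-fold difference (log2 0.38, SE 0.10, adjusted p = 0.0484).

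Mcoln2, a mucolipin known from lymphoid and myeloid cells, measured 16.4, 14.0 and 19.6 CPM in Rosa-Hes1 libraries, against 20.2, 17.8 and 25.4 CPM in control libraries. The groups overlapped and the gene did not pass the test. The log2 fold change was -0.34 (95% interval -0.71 to 0.03, adjusted p = 0.236).

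Mcoln3, mutated in the deaf varitint-waddler mouse, had few counts and the largest fold change of the 10 genes. It had 60, 18 and 35 counts in Rosa-Hes1 libraries, against 4, 1 and 6 counts in control libraries, which is 3.96, 1.17 and 2.54 CPM against 0.295, 0.0619 and 0.444 CPM. The groups did not overlap, and the lowest Rosa-Hes1 library was 2.65 times the highest control library. Summed over libraries the 113 counts in Rosa-Hes1 and 11 counts in control gave a depth-corrected ratio of 10.0, with an exact 95% interval of 5.40 to 20.7 that covers counting error only. The fitted difference was 9.65-fold (log2 3.27, SE 0.63, 95% interval 1.82 to 4.72, adjusted p = 0.0205), rank 21 of the genes tested by log2 fold change. Within the Rosa-Hes1 group, replicate 1 was 3.37 times replicate 2, the widest spread among the 10 genes in that group.

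Mcoln2 and Mcoln3 lie next to each other on chromosome 3, on the same strand and 8027 bases apart. Their log2 fold changes, -0.34 and 3.27, had opposite signs, and only Mcoln3 passed the test. Mcoln2 made 32.5%, 33.1% and 35.8% of the summed mucolipin level per kilobase in Rosa-Hes1 libraries, against 48.2%, 44.5% and 49.3% in control libraries. Mcoln3 made 7.43%, 2.63% and 4.40% in Rosa-Hes1 libraries, against 0.667%, 0.147% and 0.815% in control libraries. Neither share overlapped between the groups, and Mcoln1 made the largest share in each library, 59.8% to 64.3% in Rosa-Hes1 and 49.9% to 55.3% in control. A share also falls where another member of the sum rises, as Mcoln1 did. The CPM of Mcoln2 itself overlapped between the groups. Mcoln3 remained a small part of the mucolipin transcripts in Rosa-Hes1 libraries. The size of these shares depends on the length used. Per kilobase of the longest transcript Mcoln2 averaged 21.0% in Rosa-Hes1 and 31.1% in control libraries, while per kilobase of annotated exon it averaged 33.8% in Rosa-Hes1 and 47.3% in control libraries. Mcoln3 averaged 2.67% in Rosa-Hes1 and 0.319% in control libraries per kilobase of the longest transcript. The shares of Mcoln2 and Mcoln3 did not overlap between the groups on either scale.

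**Figure D1:**
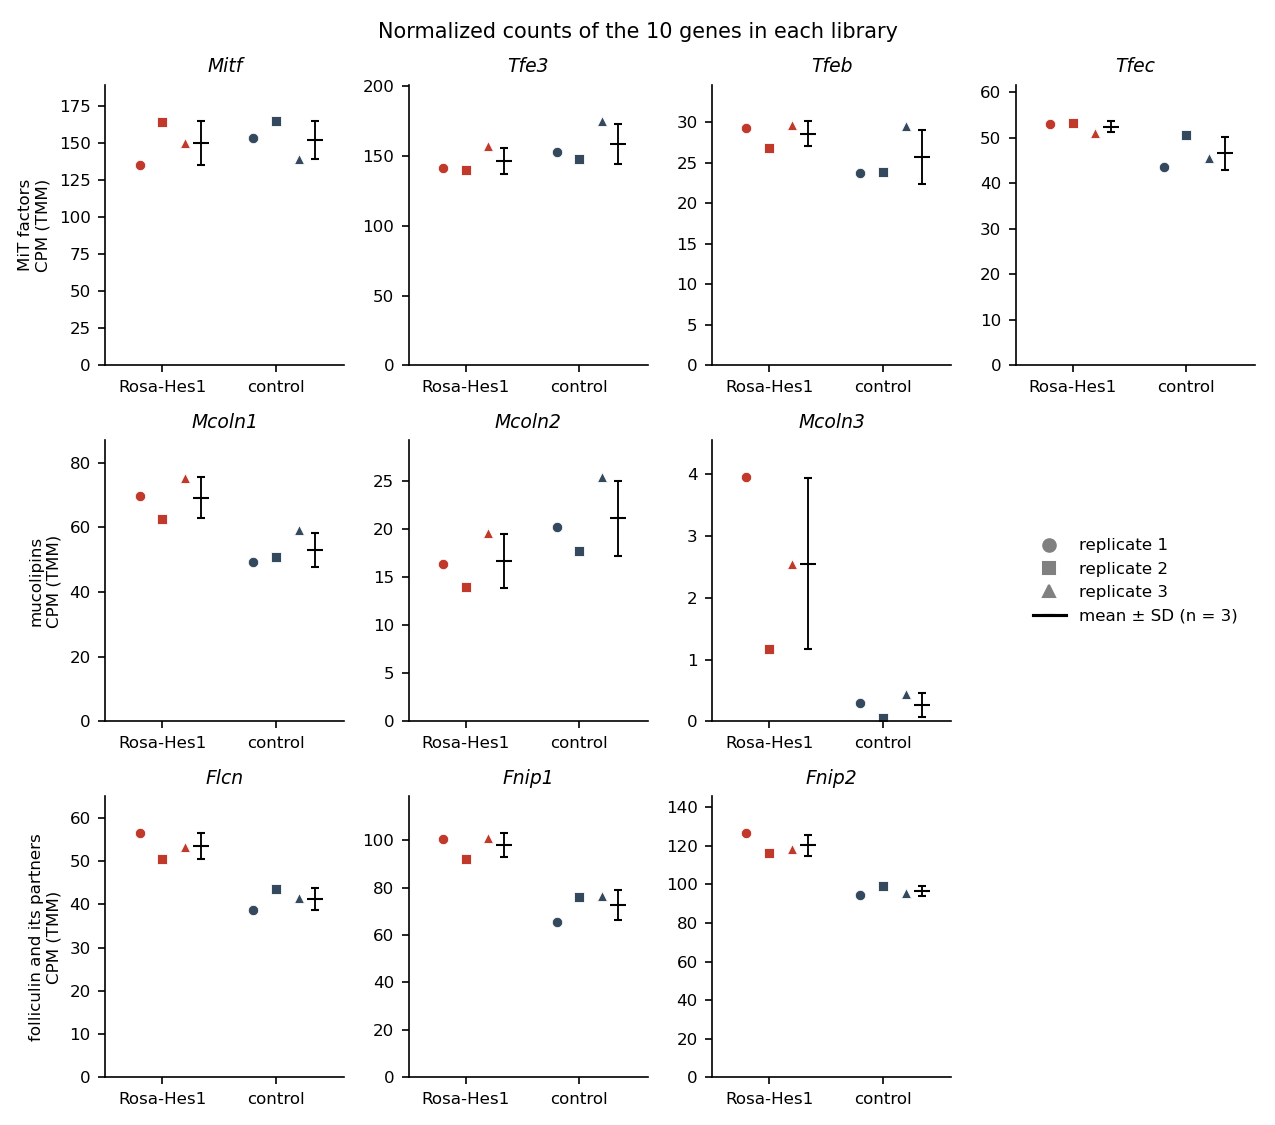
CPM after TMM normalization (y axes, each starting at 0) of the 10 genes in the 3 Rosa-Hes1 libraries (red) and the 3 control libraries (dark blue); marker shapes give the replicate, and bars are mean ± SD (n = 3). Flcn, Fnip1, Fnip2, Mcoln1, Mcoln3 and Tfec do not overlap between the groups, and Mcoln3 spans 1.17 to 3.96 CPM in Rosa-Hes1 libraries.

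The 4 MiT factors did not pass the test. Mitf, the factor of pigment cells, mast cells and osteoclasts, measured 134.9, 164.5 and 150.3 CPM in Rosa-Hes1 libraries, against 153, 164.8 and 139 CPM in control libraries. The ranges were nearly the same, and the log2 fold change was -0.02 (95% interval -0.24 to 0.19, adjusted p = 0.911). This interval bounds the difference at that size and does not show that there was none.

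Tfe3, which acts with Mitf in osteoclasts, measured 142, 140.3 and 157 CPM in Rosa-Hes1 libraries, against 153, 148 and 175 CPM in control libraries. The groups overlapped, with a log2 fold change of -0.12 (95% interval -0.31 to 0.07, adjusted p = 0.439). Tfeb, the lysosomal regulator, measured 29.3, 26.8 and 29.6 CPM in Rosa-Hes1 libraries, against 23.8, 23.9 and 29.6 CPM in control libraries. Control replicate 3 lay within the Rosa-Hes1 range, and the log2 fold change was 0.15 (95% interval -0.09 to 0.40, adjusted p = 0.427).

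Tfec, a MiT factor of the macrophage lineage, measured 53.1, 53.2 and 51.0 CPM in Rosa-Hes1 libraries, against 43.6, 50.6 and 45.5 CPM in control libraries. It was the single gene of the 10 whose groups did not overlap and that did not pass the test. Its log2 fold change was 0.17 (95% interval -0.01 to 0.35, adjusted p = 0.213).

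The counts are per gene, so Mitf and Tfeb transcripts from their different starts were not separated. The MiT sum was 51.8, 55.9 and 55.6 CPM per kilobase in Rosa-Hes1 libraries, against 53.2, 55.9 and 54.7 CPM per kilobase in control libraries. These sums overlapped. Mitf made 44.4% ± 2.77 of the sum in Rosa-Hes1 and 45.0% ± 3.53 in control libraries (SD, n = 3 each), and the order Mitf, Tfe3, Tfec and Tfeb was the same in the means of both groups.

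**Figure D2:**
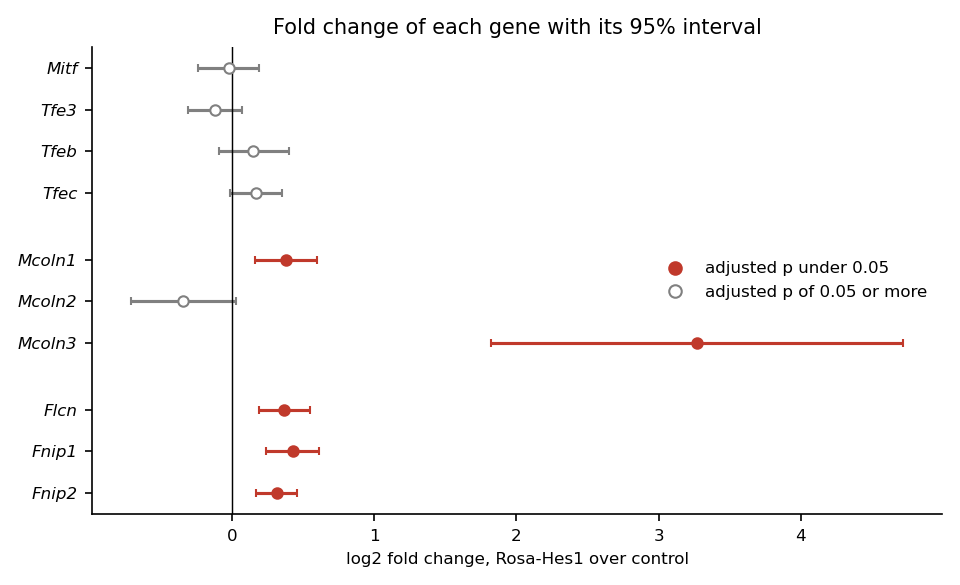
Log2 fold change of Rosa-Hes1 over control (x axis) with its 95% interval for the 10 genes, from the fit across all genes; filled red points passed the threshold. Flcn, Fnip1, Fnip2 and Mcoln1 lie between 0.32 and 0.43, Mcoln3 lies at 3.27 with the widest interval, and the intervals of the other 5 cross 0.

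Levels per kilobase of annotated exon (mean ± SD, n = 3 each) placed Mitf highest, at 24.2 ± 2.39 in Rosa-Hes1 and 24.6 ± 2.08 in control libraries. Tfe3 came next at 15.8 ± 0.998 CPM per kilobase in Rosa-Hes1 and 17.1 ± 1.56 in control libraries. Fnip2, Fnip1 and Flcn followed at 14.4 ± 0.665, 13.7 ± 0.712 and 12.4 ± 0.689 CPM per kilobase in Rosa-Hes1, against 11.5 ± 0.297, 10.2 ± 0.875 and 9.55 ± 0.578 in control libraries. In that order the ranges of mean ± SD overlapped for Tfe3 and Fnip2, Fnip2 and Fnip1, and Fnip1 and Flcn in Rosa-Hes1 libraries, and for Fnip1 and Flcn in control libraries.

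Tfec and Mcoln1 were lower, at 9.37 ± 0.217 and 9.15 ± 0.840 CPM per kilobase in Rosa-Hes1, against 8.33 ± 0.643 and 7.03 ± 0.701 in control libraries. Mcoln2 and Tfeb measured 5.08 ± 0.854 and 5.05 ± 0.275 CPM per kilobase in Rosa-Hes1, against 6.43 ± 1.19 and 4.54 ± 0.586 in control libraries. Mcoln3 was last at 0.738 ± 0.401 CPM per kilobase in Rosa-Hes1 and 0.0770 ± 0.0555 in control libraries. The ranges of mean ± SD overlapped for Tfec and Mcoln1 in both groups, for Mcoln2 and Tfeb in Rosa-Hes1 libraries, and for Mcoln1 and Mcoln2 in control libraries. This order depends on the length used. Per kilobase of the longest transcript, Mcoln1 reached 23.9 CPM in Rosa-Hes1 and 18.4 in control libraries. It then ranked above Tfe3 in Rosa-Hes1, at 23.1. Tfec, at 15.5 in Rosa-Hes1 and 13.8 in control libraries, then ranked above Flcn in both groups (15.0 and 11.6). In control libraries Tfec also ranked above Fnip1 (11.6) and Fnip2 (13.2). Tfeb, at 12.2 and 11.0, then ranked above Mcoln2, at 6.62 and 8.39.

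**Figure D3:**
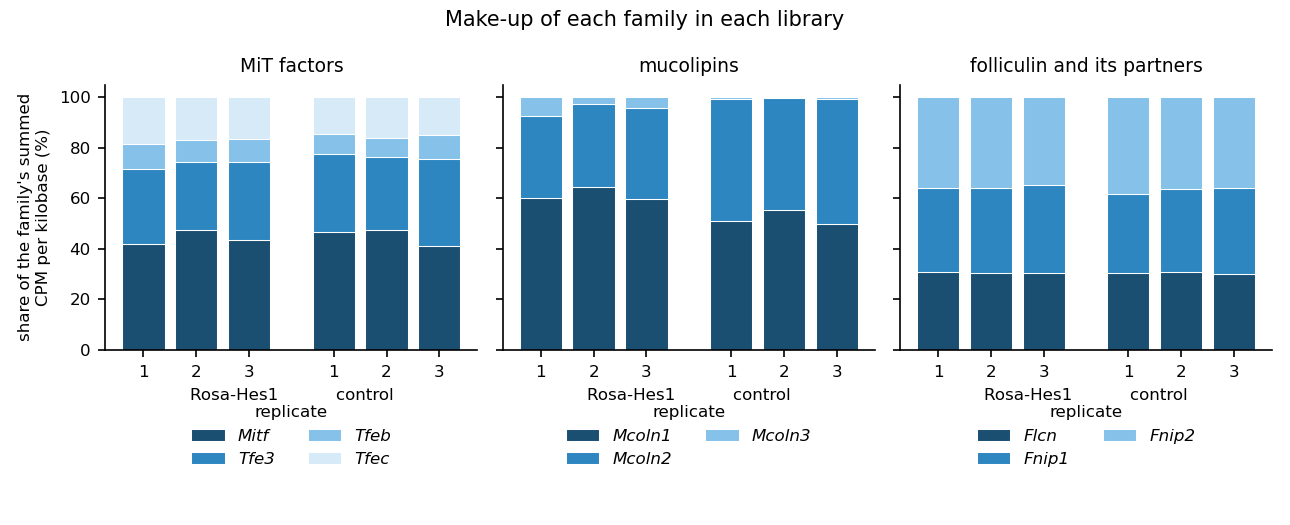
Share of each gene (stacked, in percent, y axis) in the summed CPM per kilobase of its family, for Rosa-Hes1 replicates 1 to 3 and control replicates 1 to 3 (x axis). Mcoln2 takes 32.5% to 35.8% of the mucolipin sum in Rosa-Hes1 libraries and 44.5% to 49.3% in control libraries, while the folliculin panel has nearly the same proportions in all 6 libraries.

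The call of each of the 5 genes depended on single libraries. Rosa-Hes1 replicate 2 was the lowest of its group for Flcn, Fnip1, Fnip2, Mcoln1 and Mcoln3. It also lay nearest to the controls on the first principal component of all genes, which took 52.2% of the variance, at 3.03, against 26.9 and 26.8 for the other Rosa-Hes1 libraries and -29.7 to -13.1 for the control libraries. Without it all 5 genes passed, with Mcoln3 at adjusted p = 0.00489.

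Without Rosa-Hes1 replicate 1, Rosa-Hes1 replicate 3, control replicate 1 or control replicate 3, 0 of the 10 genes passed, and without control replicate 2 only Fnip1 passed. The log2 fold changes of the 5 genes kept their sign in each of these fits, for example 0.36 to 0.47 for Fnip1 and 2.76 to 3.85 for Mcoln3. Over all genes tested, 265 passed without Rosa-Hes1 replicate 1, while 2646 passed when replicate 2 of that group was left out, against 1399 with all 6 libraries. Mcoln1 was nearest to the threshold, and its adjusted p was 0.0548 without the robust option of edgeR.

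**Figure D4:**
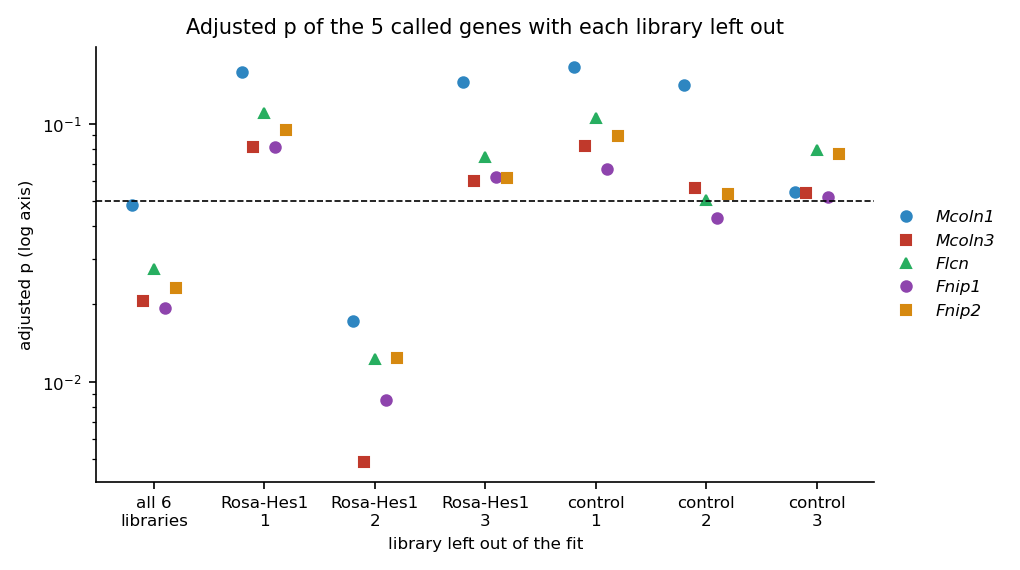
Adjusted p (log axis) of the 5 genes that passed, in the fit of all 6 libraries and with each library left out in turn (x axis); the dashed line is the threshold of 0.05. The 5 genes lie under the line with all libraries and without Rosa-Hes1 replicate 2, and Fnip1 alone lies under it without control replicate 2.

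Genes that act with the 10 were read from 6 lists. Their counts are set beside the 8.25% of all genes tested that passed and the median log2 fold change of -0.01 over all genes. Among 32 genes of the Rag GTPases, Ragulator, GATOR and mTORC1, 1 was higher in Rosa-Hes1 and 1 lower, which is 6.25% and near the share of all genes, with a median of 0.06. The higher one was Rragd, which encodes RagD, the Rag protein through which folliculin acts on TFEB and TFE3. Rragd measured 35.1, 19.8 and 28.8 CPM in Rosa-Hes1 libraries, against 8.12, 9.72 and 9.24 CPM in control libraries. The lowest Rosa-Hes1 library was above the highest control library, and the difference was 3.08-fold (log2 1.62, SE 0.20, adjusted p = 0.00644) and passed with any 1 library left out.

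Rragc, which encodes the other folliculin-regulated Rag protein, had a log2 fold change of 0.23 (SE 0.08, adjusted p = 0.128) and did not pass, although its groups did not overlap. Mios, of the GATOR2 complex, was the lower one, at 21.6, 21.6 and 22.3 CPM in Rosa-Hes1 against 28.8, 25.9 and 27.4 CPM in control libraries (log2 -0.33, SE 0.08, adjusted p = 0.0470). Mios did not pass without any 1 of the 6 libraries. Deptor, an mTOR inhibitor, gave 0.26 (SE 0.09, adjusted p = 0.115).

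Of 18 tested genes for AMPK and other partners of folliculin, 3 were higher and 1 lower (22.2%), with a median of 0.05. The AMPK subunits went both ways: Prkag2, a gamma subunit, was higher (log2 0.89, SE 0.18, adjusted p = 0.0301) and Prkaa1, a catalytic subunit, was lower (log2 -0.27, SE 0.06, adjusted p = 0.0332). Gabarapl2 of the autophagosome membrane (log2 0.39, SE 0.08, adjusted p = 0.0260) and Rab7, a GTPase of late endosomes (log2 0.26, SE 0.06, adjusted p = 0.0474), were the other 2 that rose. None of the 4 passed without Rosa-Hes1 replicate 1, Rosa-Hes1 replicate 3, control replicate 1 or control replicate 2, and Prkag2 alone passed without control replicate 3.

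Another list held lysosomal ion channels, exchangers, carriers and their partners, with makers of PI(3,5)P2, the lipid that opens mucolipins. Of its 17 tested genes, 3 were higher and 0 lower (17.6%, median 0.09). Clcn7, the lysosomal chloride-proton exchanger needed for bone resorption, measured 876, 699 and 905 CPM in Rosa-Hes1 libraries, against 324, 444.5 and 402 CPM in control libraries. That is 2.12-fold (log2 1.08, SE 0.14, adjusted p = 0.00659), while its beta subunit Ostm1 gave 0.36 (SE 0.10, adjusted p = 0.0722) and did not pass. Both are counted again in the MITF and TFE3 target list below, and Clcn7 also among the osteoclast markers. Ctns, the cystine carrier, was higher (log2 0.56, SE 0.08, adjusted p = 0.00821), as was Fig4, the phosphatase of the PI(3,5)P2-making complex (log2 0.32, SE 0.08, adjusted p = 0.0451). Fig4 passed with 1 library left out only when that was Rosa-Hes1 replicate 2.

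Of 26 kinases, phosphatases and carriers that act on MiT proteins, 1 was higher and 0 lower (3.85%, median -0.03). It was Map4k3, a kinase reported to phosphorylate TFEB (log2 0.38, SE 0.07, adjusted p = 0.0157), which with 1 library left out passed only where that was replicate 2 of either group. Xpo1, the nuclear exporter of MiT proteins, gave -0.21 (SE 0.06, adjusted p = 0.0732), Hint1, a partner of MITF, -0.18 (SE 0.06, adjusted p = 0.0937), and Ppp2ca, a phosphatase subunit, 0.18 (SE 0.06, adjusted p = 0.110).

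Genes reported as targets of MiT factors made up 2 further lists. Of 16 osteoclast genes reported as MITF and TFE3 targets, 8 were higher and 0 lower, with a median of 0.41. Several of these are named by the study from the same libraries, and 7 of the 8 serve as osteoclast markers below, so the count is not independent evidence. They included Oscar, a co-stimulatory receptor (log2 1.13, SE 0.18, adjusted p = 0.0150), Acp5, the TRAP enzyme (log2 0.74, SE 0.11, adjusted p = 0.00917), and Atp6v0d2, a proton pump subunit (log2 0.72, SE 0.10, adjusted p = 0.00758). Leaving out Rosa-Hes1 replicate 1 or control replicate 3 gave 3 higher genes, and leaving out Rosa-Hes1 replicate 3 gave 4. It was 5 with control replicate 1 left out.

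Of 45 CLEAR genes of lysosomes and autophagy, 21 were higher and 2 lower (51.1%), with a median of 0.27. The log2 fold change was above 0 for 36 of the 45 and below 0 for 9. The list was chosen with earlier results known and holds Cd63, which the study names from these libraries, so its count is not independent evidence. Among them Atg9b, of autophagosome formation, measured 8.11, 6.39 and 8.43 CPM in Rosa-Hes1 libraries, against 2.80, 3.47 and 2.37 CPM in control libraries (log2 1.40, SE 0.20, adjusted p = 0.00764). Atp6v1a, of the proton pump, gave 0.72 (SE 0.10, adjusted p = 0.00694), Tpp1, a lysosomal peptidase, 0.74 (SE 0.10, adjusted p = 0.00748), and Atp6v0e, also of the proton pump, 0.54 (SE 0.08, adjusted p = 0.00795). With 1 library left out the higher count ran between 4 (Rosa-Hes1 replicate 1 missing) and 23 (Rosa-Hes1 replicate 2 missing). Leaving out control replicates 1, 2 and 3 gave 9, 13 and 10 genes, and leaving out Rosa-Hes1 replicate 3 gave 10.

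**Figure D5:**
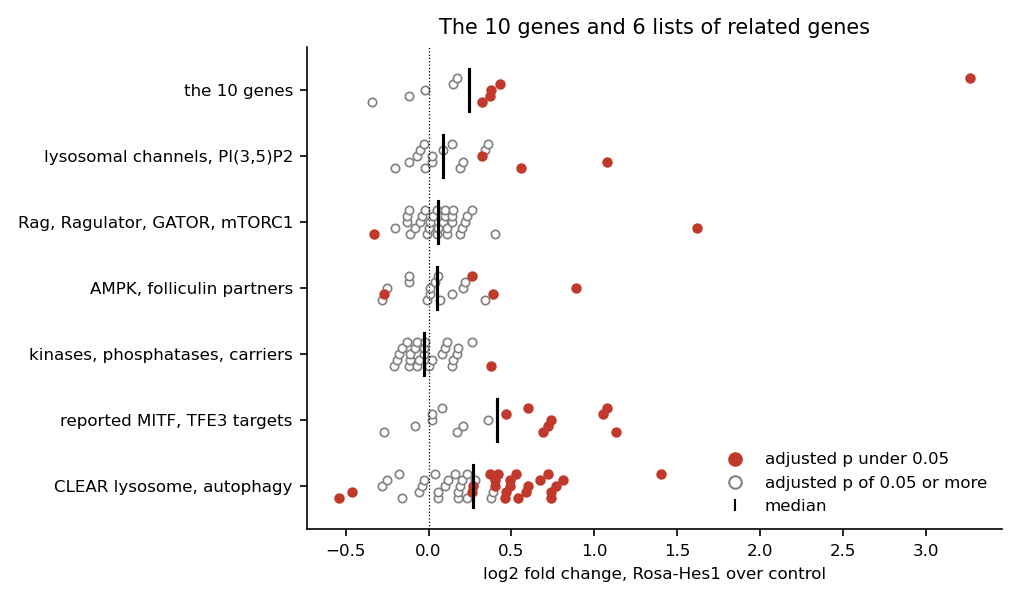
Log2 fold change of Rosa-Hes1 over control (x axis) for each tested gene of the 10 and of 6 lists of related genes (rows); red points passed the threshold and black bars are medians. The medians are 0.24 for the 10 genes, 0.27 for the CLEAR list and 0.41 for the MITF and TFE3 target list, against -0.03 to 0.09 for the 4 others, in which Rragd at 1.62 and Clcn7 at 1.08 stand out to the right.

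Osteoclast markers rose as well. Of 12 markers 11 were higher in Rosa-Hes1, where 5.85% of all genes tested were higher. The exception was Ctsk, which carries the Cre allele in Rosa-Hes1 cells (log2 0.08, SE 0.11, adjusted p = 0.709). Most of the 12 are named by the study as higher in these same libraries, so the count is not independent evidence. The 12 summed to 18200 to 21339 CPM in Rosa-Hes1 and 11320 to 14579 CPM in control libraries, and none was at 0. Of 10 macrophage markers 1 was higher and 1 lower, and their sums were 8739 to 10176 CPM in Rosa-Hes1 and 8856 to 10528 CPM in control libraries. The part of osteoclast number in the levels of the 10 genes was not tested.

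Other cells that use Mitf were nearly without signal. Of 10 melanocyte and mast cell markers 5 were at 0 in all libraries, Tyr, Tyrp1 and Dct among them, and the sums were 1.37 to 2.04 CPM in Rosa-Hes1 and 0.739 to 2.07 CPM in control libraries. B cell markers summed to 3.76 to 5.52 CPM in Rosa-Hes1 and 3.25 to 4.39 in control libraries, and T and NK cell markers to 3.36 to 7.12 CPM in Rosa-Hes1 and 3.99 to 7.55 in control libraries. Neutrophil markers reached 168.5 to 215 CPM in Rosa-Hes1 and 176 to 324 in control libraries, and stroma and osteoblast markers 131 to 433 CPM in Rosa-Hes1 and 203 to 559 in control libraries. Not all markers in these 5 lists had enough counts to be tested. Tested were 2 of 10 for melanocytes and mast cells, 2 of 5 for B cells and 2 of 6 for T and NK cells. For neutrophils 6 of 6 were tested, and for stroma and osteoblasts 7 of 8. None of the tested markers passed, and the part of these cells in the results was not tested.

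The profiles most like those of 3 of the 10 genes, 1 from each family with the largest fold change of its family, were sought among genes that averaged 1 CPM or more. The measure was the root mean square difference over the 6 libraries between profiles of log2(CPM + 0.5) centred on their means. The added 0.5 narrows the profile of a gene with levels as low as those of Mcoln3 in control libraries. For Mcoln3 the nearest were Rptoros, a transcript opposite Rptor (0.213), Lims2 (0.262) and Vwf (0.281). Rptoros had 54, 24 and 30 counts in Rosa-Hes1 libraries, against 5, 1 and 10 counts in control libraries, and like Mcoln3 it was lowest in control replicate 2. Whether the counting used strand is not given in the sources used here, so reads of Rptoros and Rptor may not have been told apart. For Fnip1 the nearest were Pip5k1c (0.0159), Uqcrfs1 (0.0249) and Pccb (0.0281), and for Tfec they were Abracl (0.0104), Naa50 (0.0175) and Maea (0.0216).

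Genes beside the 10 on the chromosome passed at about the rate of all genes. Of 74 genes within 100 kb, 37 were tested and 3 passed, all higher, where 8.25% of all genes tested passed, and Mcoln3 as the neighbour of Mcoln2 was 1 of these. Rapgef6, which starts 4612 bases beyond Fnip1 on the same strand, measured 185, 158 and 183 CPM in Rosa-Hes1 libraries, against 103, 119.6 and 100.3 CPM in control libraries (log2 0.70, SE 0.09, adjusted p = 0.00659). Etfdh, a mitochondrial electron carrier gene 35992 bases from Fnip2, was also higher (log2 0.43, SE 0.10, adjusted p = 0.0309). Ppid, between Fnip2 and Etfdh, gave -0.35 (SE 0.11, adjusted p = 0.0932; chosen after its value was seen).

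Fnip2, Mcoln2 and Mcoln3 share chromosome 3 with the Cre allele, at 15.9, 50.6 and 50.6 Mb from Ctsk, and 8.40% of the tested genes of that chromosome passed. Mitf lies 15.0 Mb from Rosa26 on chromosome 6, and Tfec 96.2 Mb from it. On GRCm38 the other genes with a call are Flcn (chromosome 11, 59791408 to 59810016, minus strand), Fnip1 (chromosome 11, 54438199 to 54518235, plus strand) and Mcoln1 (chromosome 8, 3500457 to 3515232, plus strand). Other annotated genes overlap Mitf (Gm15531), Fnip1 (Gm24198) and Fnip2 (Gm17359 and Gm3513), and reads there may have been left out as ambiguous.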

How the data were processed

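RNA-Seq was performed by the authors on 3 Rosa-Hes1 and 3 control libraries (stranded mRNA libraries, paired-end reads). Per the methods and the submitters' processing notes, the authors trimmed with Sickle, aligned with HISAT2 2.1.0, used samtools 1.9, removed PCR duplicates with Picard and counted per gene with HTSeq-count. A human genome appears in the methods, but the notes give GRCm38 and the identifiers are mouse. The deposited counts are whole numbers per gene without normalization. Total counts in genes were 13038362 to 15956331 per library. The labels call the replicates biological; whether each came from its own mouse is not given in the sources used here.

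Names and positions came from GENCODE M21, and promoters from RefSeq (GRCm38.p6). Rosa-Hes1 over control was fitted in edgeR 4.0.16 (R 4.3.3; TMM, robust quasi-likelihood test, no covariate) on genes with at least 10 counts in sum, with Benjamini-Hochberg adjustment over all genes tested and a threshold of 0.05. The test was tried on simulated data first. CPM per kilobase used the union of annotated exons. An exact permutation test of 3 against 3 libraries cannot go below p = 0.1 and was not used. Duplicated libraries were not found.

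The genes and lists were chosen with earlier results of these data known. Named were the 10 genes, Hes1, up to 4 genes per list with the smallest adjusted p, neighbours past the threshold, the 3 nearest profiles and defining markers; any other is said to be chosen after its values were seen. Alternatives were DESeq2 (1.42.0) size factors and upper quartile scaling, filterByExpr or no filter, the DESeq2 Wald test, and limma-voom with quality weights (3.58.1). Further alternatives were no robust option, the replicate number as a block, each library left out, and, added after the data were seen, edgeR's newer quasi-likelihood method. The planned comparison of protein sequences was not run.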

Additional observations from a re-analysis of the deposited data

How the results depend on the processing

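The signs of the 5 genes that passed were the same under 9 alternatives and with each of 6 libraries left out, and Mitf, Tfe3, Tfeb, Tfec and Mcoln2 passed under none of them. The median log2 fold change of all genes moved by at most 0.02 between scalings. Genes passing over the whole table were 1399, against 2178 with the DESeq2 Wald test and 2294 with limma-voom with quality weights. They were 265 to 2646 with 1 library left out. Higher genes were 991, against 244 to 1555 with 1 library left out. Lower genes were 408, against 697 without a filter, 876 with DESeq2 and 917 with limma-voom with quality weights. They were 21 to 1091 with 1 library left out. Members passing were 5, against 0 to 5 with 1 library left out. The log2 fold change of Mcoln1 was 0.38 without the robust option (adjusted p = 0.0548) and 0.38 with the newer edgeR method, chosen after seeing the data (adjusted p = 0.0506); the cause was not tested. With 1 library left out it ran from 0.31 to 0.47 (adjusted p 0.0172 to 0.166), that of Mcoln3 from 2.76 to 3.85 (0.00489 to 0.0821), Flcn from 0.33 to 0.41 (0.0123 to 0.110), Fnip1 from 0.36 to 0.47 (0.00853 to 0.0813) and Fnip2 from 0.28 to 0.34 (0.0124 to 0.0941). These fits have fewer samples. Mcoln3 had 1 to 6 counts in each control library, which limits how closely its fold is known.

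Same-numbered libraries of the 2 groups did not deviate together more than others did (correlations of -0.02, -0.15 and 0.37). Libraries with different numbers gave -0.49 to 0.48. The numbers were not taken as pairs, though so few libraries cannot exclude pairing. With the replicate number as a block, 3 of the 10 genes passed; Flcn gave 0.37 (adjusted p = 0.0589) and Fnip2 0.32 (adjusted p = 0.0510). Of the CLEAR genes 15 were then higher. Calls over all genes were fewer too, 1050 with the block (710 higher) against 1399 without it (991 higher).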

Other observations

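A few genes of the lists went against the direction of the rest, and they were chosen after their values were seen. Ctsl, a lysosomal cysteine protease of the CLEAR list, measured 816, 1100.0 and 867 CPM in Rosa-Hes1 libraries, against 1453, 1145 and 1462 CPM in control libraries (log2 -0.54, SE 0.14, adjusted p = 0.0464, edgeR). The groups did not overlap, though Rosa-Hes1 replicate 2 and control replicate 2 lay close together. Hif1a, the hypoxia-inducible factor in the same list, measured 151, 171 and 162 CPM in Rosa-Hes1 libraries, against 239, 190.5 and 237 CPM in control libraries (log2 -0.46, SE 0.10, adjusted p = 0.0270, edgeR).

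Among the macrophage markers, Cd68, a lysosomal membrane protein that osteoclasts also make, was higher in Rosa-Hes1 libraries at 1257, 1024 and 1208 CPM, against 765, 826 and 849.9 CPM in control libraries (log2 0.52, SE 0.09, adjusted p = 0.0142, edgeR). Cx3cr1, a chemokine receptor of monocytes, was lower at 143, 119 and 108 CPM in Rosa-Hes1 libraries, against 193, 154 and 175 CPM in control libraries (log2 -0.50, SE 0.12, adjusted p = 0.0404, edgeR). Tnfrsf11a, which encodes the RANK receptor and is listed among reported MITF targets, gave 0.02 (SE 0.06, adjusted p = 0.850, edgeR) and did not pass.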
